A study of Mus musculus with 8 samples.

Results

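The enzymes that write, copy and remove cytosine methylation in DNA were followed through an eIF4A2 knockdown in mouse embryonic stem cells. They were chosen by gene symbol, with earlier results of these data known. They are Dnmt1, Dnmt3a, Dnmt3b, Dnmt3l, Uhrf1, Tet1, Tet2, Tet3 and Tdg. These are 9 of the 13838 genes with a row in at least 1 of the 2 deposited tables. All 9 had rows in both tables, which list 12818 genes for ribosome footprints and 13436 for total RNA, and all 9 passed the filter on low read numbers in both.

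The cells were J1 embryonic stem cells of strain 129S4/SvJae, cultured without feeders in serum with leukemia inhibitory factor. All groups were infected with shRNAs on day 0, put under 1 μg/mL puromycin for 3 days, and lysed on day 4.5 after 1 min in 0.1 mg/mL cycloheximide, which holds ribosomes on mRNA. The knockdown groups carried shRNAs against eIF4A2, a DEAD-box RNA helicase of translation initiation, and the control groups carried control shRNAs, for which the protocol names shNT and shGFP. Knockdown and control were each measured in 2 footprint libraries (fragments of mRNA protected by ribosomes) and 2 total RNA libraries, 8 libraries in 4 groups. The sources used here do not say which shRNA went into which library. The protocol calls the libraries of a group biological replicates, and the p-values below measure the spread between these libraries only.

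Levels are in CPM, reads per gene divided by an effective library size. Column sums therefore differ, from 894269 to 1058780 in footprints and from 964909 to 1052300 in total RNA. All fold changes are of knockdown over control on the log2(CPM + 1) scale with their standard error (SE). Depth was between 7947827 and 9573832 reads in 3 footprint libraries and between 8564582 and 12840349 in total RNA. For footprint control 2 it would be 10682677 if the lowest value there is 1 read, which could not be told from rounding, and footprint read numbers given below carry that doubt for this library. Eif4a2 itself was at 57.8% of control in footprints and 70.3% in total RNA, and passed in neither assay (limma, adjusted p = 0.273 and 0.29). Its footprints were 310.8 and 153.5 CPM in knockdown 1 and 2 against 394.9 and 408.9 CPM. The log2 fold change of -0.88 was -1.38 without knockdown 1 and -0.37 without knockdown 2, and that of -0.50 in total RNA was -0.30 without control 2. Stem cell markers summed to 4825 and 4804 CPM in the knockdown against 7049 and 6685 CPM in footprints, and to 4484 and 4433 CPM against 5810 and 6785 CPM in total RNA, lower in both knockdown libraries. Of the 8 markers 7 were negative in each assay, with a median of -0.39 in each, and their part in the results was not tested. Fibroblast markers, with rows for 3 of 8, summed to between 6.99 and 20.4 CPM. Over all genes tested limma called 0 for footprints, total RNA and their ratio, with 1636, 2002 and 192 genes at an unadjusted p below 0.05, and the median log2 fold change was 0.01, -0.00 and -0.00. edgeR's quasi-likelihood test called 3 genes in footprints, where the second control could not be used, and 0 in total RNA. In these bulk samples, fewer cells of a type and less RNA per cell cannot be told apart.

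As background, Dnmt3a and Dnmt3b place methyl groups on unmethylated CpG sites, with the catalytically inactive Dnmt3l as their cofactor, whereas Dnmt1 restores the marks after replication at hemimethylated sites that Uhrf1 recognises. Tet1, Tet2 and Tet3 oxidise methylcytosine, and the glycosylase Tdg cuts out the more oxidised forms so that base excision repair can put back an unmodified cytosine. Embryonic stem cells are known for high Dnmt3l, Tet1 and Tet2, and cells leaving the naive state for rising Dnmt3a and Dnmt3b.

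The results turn on Dnmt3a and Dnmt3b, which were higher after knockdown, and Tet2, which was lower. The 250 bases before a RefSeq start of each are shown because these are the members with an unadjusted limma p below 0.05 in total RNA. They come from RefSeq promoters on build GRCm38.p6 and are written 5′ to 3′ on the gene's own strand. Dnmt3a has 3 listed starts, and the one shown lies 90.2 kb inside the gene (chr12:3891494-3891743, plus strand). In embryonic stem cells the short form Dnmt3a2 is known to be made from an internal promoter. The Dnmt3b window is chr2:153649199-153649448 on the plus strand and the Tet2 window chr3:133544391-133544640 on the minus strand. Capitals mark GC boxes (GGGCGG, or CCGCCC on the other strand) and the E-box CACGTG, which reads the same on both strands.
Dnmt3a internal start: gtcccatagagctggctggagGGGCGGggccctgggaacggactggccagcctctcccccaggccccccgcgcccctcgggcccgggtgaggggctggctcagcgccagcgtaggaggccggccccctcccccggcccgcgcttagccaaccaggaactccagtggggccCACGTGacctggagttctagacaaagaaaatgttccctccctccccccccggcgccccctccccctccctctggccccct
Dnmt3b: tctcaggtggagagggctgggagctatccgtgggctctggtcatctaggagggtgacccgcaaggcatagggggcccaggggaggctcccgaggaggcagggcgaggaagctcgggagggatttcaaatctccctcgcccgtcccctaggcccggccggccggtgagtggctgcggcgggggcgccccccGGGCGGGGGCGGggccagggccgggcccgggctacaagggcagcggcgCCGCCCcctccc
Tet2: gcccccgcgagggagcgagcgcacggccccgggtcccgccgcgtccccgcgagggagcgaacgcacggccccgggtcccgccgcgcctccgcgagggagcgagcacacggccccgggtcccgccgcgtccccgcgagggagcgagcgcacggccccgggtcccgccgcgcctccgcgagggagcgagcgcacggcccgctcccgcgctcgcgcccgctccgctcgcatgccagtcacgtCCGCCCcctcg

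The Dnmt3a window held 1 GC box, 1 E-box and 15 CpG dinucleotides. Dnmt3b had 3 GC boxes, of which a pair adjoin, and 21 CpGs. Tet2 had 1 GC box and 51 CpGs. Across 32851 mouse windows of the same length the median was 6 CpGs, 32.7% held a GC box, 6.0% held the E-box and 12.4% held the letters TATAAA on either strand. No TATAAA was present in any of the 16 windows of the 9 members. A match is a run of letters and does not show that a factor binds there. The 2 upstream Dnmt3a windows held 38 and 40 CpGs and 5 and 4 GC boxes. Reads were counted per gene, so the starts of a gene were not told apart.

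The de novo methyltransferases Dnmt3a and Dnmt3b were higher in both knockdown libraries than in both control libraries, in footprints and in total RNA. Their cofactor Dnmt3l was lower in both assays. No difference passed limma's adjusted threshold of 0.05.

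Dnmt3a, a catalytic de novo enzyme, had total RNA of 481.7 and 497.1 CPM in knockdown 1 and 2 and of 247.5 and 196.3 CPM in control 1 and 2. Both knockdown libraries were high and close together (a ratio of 1.03), and the groups did not overlap. The ratio of means was 2.21 and the log2 fold change was 1.15 ± 0.16 SE (limma, adjusted p = 0.0992), the 48th smallest p of 13436 genes. Footprints gave the same order. They were 305.1 and 356.1 CPM in the knockdown and 188.4 and 163.7 CPM in the control, a ratio of 1.88 and a log2 fold change of 0.90 ± 0.17 (limma, adjusted p = 0.106). Between 1652 and 6615 reads per library stood behind these values, the lowest being footprint control 2 with its uncertain read number.

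Dnmt3b, the other catalytic de novo enzyme, had total RNA of 436.6 and 452.1 CPM in the knockdown and of 232.4 and 247.3 CPM in the control. Each pair was close together and the pairs lay far apart. Means differed 1.85-fold, with a log2 fold change of 0.89 ± 0.13 (limma, adjusted p = 0.101). In footprints Dnmt3b had 334.1 and 457.5 CPM in the knockdown and 242.8 and 262.2 CPM in the control. The groups again did not overlap, but the knockdown libraries differed by a factor of 1.37, and the log2 fold change was 0.63 ± 0.19 (limma, adjusted p = 0.248).

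Dnmt3l, which binds the catalytic pair and stimulates them, had footprints of 389.2 and 566.4 CPM in the knockdown and of 645.4 and 704.1 CPM in the control. Knockdown 1 was the lowest of the 4 libraries, and knockdown 2 lay nearer to control 1 than to knockdown 1. The mean was 70.8% of control (log2 fold change -0.52 ± 0.21; limma, adjusted p = 0.349). Total RNA of Dnmt3l was 260.9 and 286.8 CPM in the knockdown and 304.9 and 395.2 CPM in the control, 78.2% of control (-0.34 ± 0.17; limma, adjusted p = 0.415). The groups did not overlap in either assay, though the gap in total RNA was small against the distance between the controls.

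**Figure D1:**
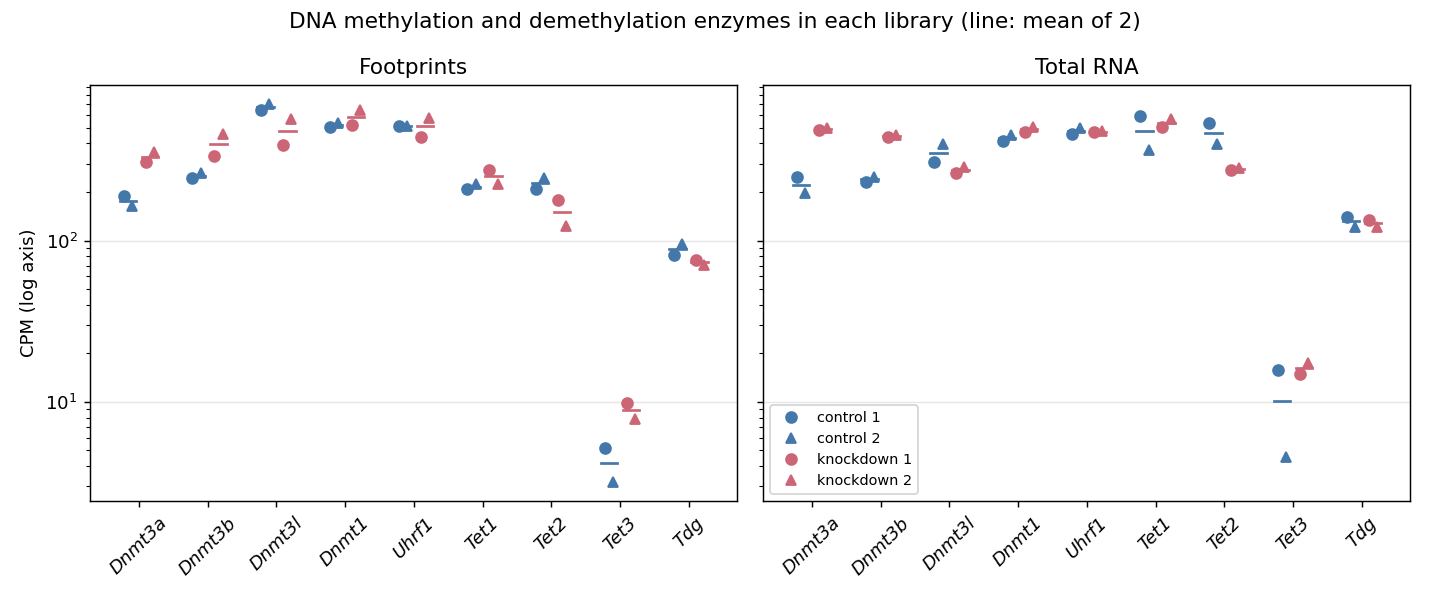
Level of each enzyme in each library in CPM (log axis), footprints on the left and total RNA on the right, with controls in blue, knockdowns in red and a line at the mean of 2 libraries. Both knockdowns lie above both controls for Dnmt3a and Dnmt3b and below them for Dnmt3l and Tet2 in both assays; heights are not corrected for transcript length and are not to be compared between genes.

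The maintenance pair Dnmt1 and Uhrf1 was close to control. Dnmt1, which copies methylation onto the new strand, had total RNA of 472.9 and 507.9 CPM in the knockdown and of 417.3 and 452.4 CPM in the control. The groups did not overlap, by a margin smaller than the distance within either pair, and the log2 fold change was 0.17 ± 0.14 (limma, adjusted p = 0.605, 95% confidence interval -0.17 to 0.51). Footprints of Dnmt1 were 518.7 and 649.5 CPM in the knockdown against 508.0 and 534.1 CPM, with overlapping groups (0.16 ± 0.18; limma, adjusted p = 0.762).

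Uhrf1, the reader that brings Dnmt1 to hemimethylated DNA, had total RNA of 468.3 and 474.9 CPM in the knockdown and of 460.0 and 498.9 CPM in the control. Its footprints were 441.6 and 578.7 CPM in the knockdown and 511.8 and 514.6 CPM in the control. The knockdown values lay on both sides of the controls in footprints and between them in total RNA. The log2 fold change was -0.02 in each assay (limma, adjusted p = 0.973 and 0.959), with 95% confidence intervals of -0.45 to 0.40 in footprints and -0.35 to 0.31 in total RNA. Both signs turned when columns were rescaled to equal sums (0.10 and 0.05), a setting that moved the median of all genes to 0.12 in footprints and 0.06 in total RNA.

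Around the maintenance pair stood 14 partners, among them chromatin factors, replication proteins and modifiers of Dnmt1. Their log2 fold changes had a median of -0.18 in footprints (11 of 14 negative) and -0.09 in total RNA (10 of 14 negative), beside medians of 0.01 and -0.00 over all genes. limma called 0 of them. At an unadjusted p below 0.05 they had 0 higher and 3 lower in footprints and 2 higher and 2 lower in total RNA. Hdac2, a histone deacetylase, had footprints of 93.1 and 131.7 CPM against 149.0 and 172.5 CPM in the control and total RNA of 112.9 and 114.4 CPM against 146.6 and 191.3 CPM (limma, adjusted p = 0.32 and 0.22). Kat5, an acetyltransferase, had a footprint log2 fold change of -0.59 ± 0.18, and Ehmt1, a histone H3 lysine methyltransferase, had 0.39 ± 0.13 in total RNA and 0.10 ± 0.18 in footprints. These were the partners with the smallest p, and no member of the list passed.

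The TET dioxygenases had values of both signs. Tet2 was lower after knockdown in both assays, Tet1 differed little between the group means, and Tet3 had higher group means on few reads.

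Tet2 had total RNA of 274.3 and 280.2 CPM in the knockdown and of 536.0 and 398.1 CPM in the control. The knockdown libraries were low and nearly equal, the controls high and apart by a factor of 0.743. The mean was 59.4% of control, with a log2 fold change of -0.73 ± 0.18 (limma, adjusted p = 0.16). Footprints of Tet2 were 178.1 and 122.4 CPM in the knockdown and 210.0 and 246.1 CPM in the control, 65.9% of control (-0.62 ± 0.21; limma, adjusted p = 0.277). Knockdown 2 was the lowest footprint library, and the groups did not overlap.

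Tet1, with Tet2 the TET enzyme best known in embryonic stem cells, had total RNA of 504.1 and 570.1 CPM in the knockdown. Its controls were at 589.1 and 363.2 CPM, the highest and the lowest of the 4 libraries, so that the groups overlapped. The log2 fold change of 0.21 ± 0.25 (limma, adjusted p = 0.734) became -0.14 without control 2 and 0.56 without control 1. In footprints Tet1 had 273.6 and 225.8 CPM against 208.2 and 223.0 CPM, higher by a margin smaller than the distance within each group (0.21 ± 0.17; limma, adjusted p = 0.653).

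Tet3 had between 32 and 88 footprint reads and between 41 and 233 total RNA reads per library, the fewest of the 9 genes, where 32 is the uncertain number of footprint control 2. Its footprints were 9.90 and 7.85 CPM in the knockdown and 5.20 and 3.17 CPM in the controls, without overlap (log2 fold change 0.95 ± 0.31; limma, adjusted p = 0.266). In total RNA control 1 was at 15.8 CPM, between the knockdown libraries at 15.0 and 17.5 CPM, and control 2 was at 4.55 CPM. The total RNA log2 fold change of 0.84 ± 0.49 (limma, adjusted p = 0.48) therefore stood on control 2. It was 0.04 without that library and 1.63 without control 1. The ratio of control 2 to control 1 was 0.289 for Tet3. Only 0.255% of the 9013 genes with a mean of at least 10 CPM, Tet3 included, had a ratio as low or lower. For Tet1 that ratio was 0.616, at percentile 8.09.

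Tdg, the glycosylase downstream of the TET enzymes, had footprints of 76.1 and 70.7 CPM in the knockdown and of 81.6 and 95.2 CPM in the control. They were lower without overlap (83.0% of control, log2 fold change -0.26 ± 0.17; limma, adjusted p = 0.552). Total RNA of Tdg overlapped, at 134.6 and 121.6 CPM against 141.0 and 121.9 CPM (-0.04 ± 0.14; limma, adjusted p = 0.937), and its sign turned with columns rescaled to equal sums (0.04).

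**Figure D2:**
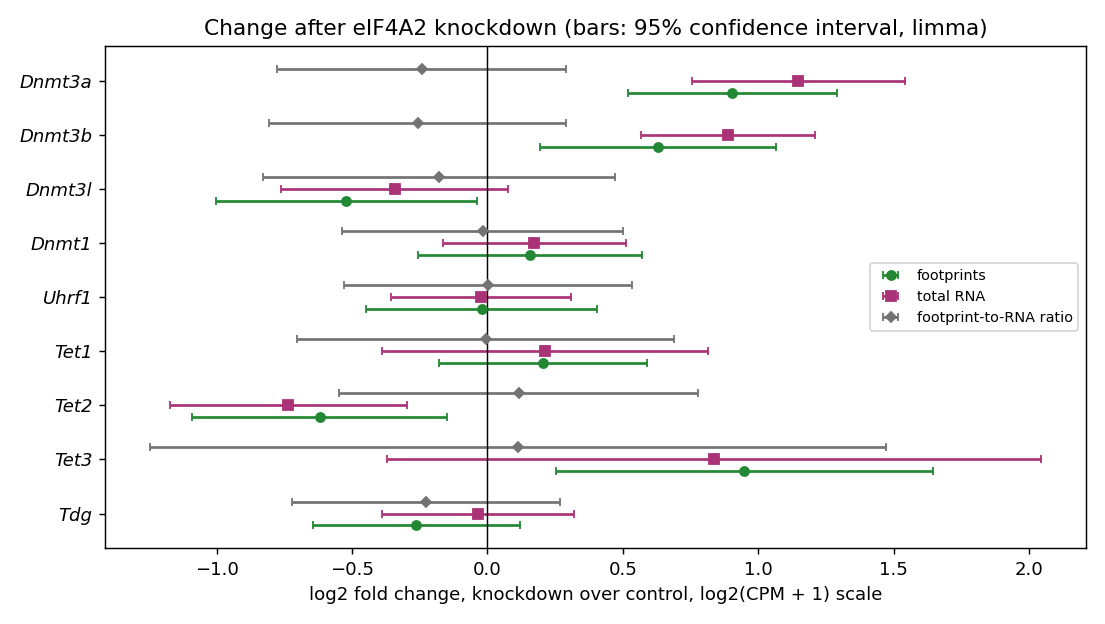
Log2 fold change of knockdown over control for each enzyme in footprints (green), total RNA (purple) and their ratio (grey), with 95% confidence intervals from limma that are not adjusted for the number of genes. Intervals lie wholly above 0 in both assays for Dnmt3a and Dnmt3b and wholly below 0 for Tet2, and every interval of the ratio includes 0.

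Counted over the 9 enzymes, the groups did not overlap for 7 in footprints, where 44.8% of all genes tested did not overlap, and for 5 in total RNA, where 47.9% did not. By direction, 4 were higher and 3 lower in footprints (22.3% and 22.5% of all genes) and 3 were higher and 2 lower in total RNA (23.3% and 24.6%). An unadjusted limma p below 0.05 was reached by 5 of 9 in footprints (Dnmt3a, Dnmt3b, Tet3, Tet2 and Dnmt3l), against 12.9% of all genes, and by 3 of 9 in total RNA (Dnmt3a, Dnmt3b and Tet2), against 14.9%. These were 3 higher and 2 lower in footprints (6.12% and 6.74% of all genes) and 2 higher and 1 lower in total RNA (6.82% and 8.08%), and the list counts given at this threshold read against the same shares. After adjustment limma called 0 of 9 in each assay, where it called 0% of all genes. The authors' deposited table of total RNA, which holds the authors' likelihood ratio statistics, lists Dnmt3a (FDR 1.6e-05), Dnmt3b (FDR 0.00071) and Tet2 (FDR 0.0161) below 0.05, as it does 5.4% of its genes (2.21% higher, 3.19% lower). Their table of footprints lists Dnmt3a alone of the 9 (authors' deposited FDR 0.0223), where 1.68% of genes pass (0.788% higher, 0.889% lower). DESeq2 and edgeR's likelihood ratio test, run on the total RNA reads, each called the same 3 genes as the authors' deposited table, and edgeR's quasi-likelihood test called 0 of 9. Dnmt3a and Dnmt3b were higher without overlap in both assays, as were 12.3% of all genes, and Dnmt3l and Tet2 were lower without overlap in both, as were 12.4%. The 9 genes were split in direction, with 5 positive and 4 negative in each assay and medians of 0.16 in footprints and 0.17 in total RNA.

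With each library left out in turn, Dnmt3a kept footprint log2 fold changes of 0.79 to 1.02 and total RNA changes of 0.98 to 1.31. Dnmt3b kept 0.84 to 0.93 in total RNA, but in footprints it ranged from 0.40 without knockdown 2 to 0.86 without knockdown 1. Tet2 stayed negative, between -0.95 and -0.52 in total RNA and between -0.89 and -0.35 in footprints, where the value nearest to 0 came without knockdown 2. Dnmt3l stayed negative too, with values nearest to 0 of -0.25 in footprints without knockdown 1 and -0.16 in total RNA without control 2. The signs of these genes could not turn, as their groups did not overlap, so only the sizes are read. Dnmt1 turned to -0.01 in footprints without knockdown 2. The footprint libraries of the knockdown differed from each other with an SD of 0.423 in log2 over genes of at least 10 CPM, and the total RNA controls with an SD of 0.45, against 0.135 for the total RNA knockdowns. In total RNA, knockdown 1 and 2 differed from control 1 with SDs of 0.323 and 0.336, less than the controls did from each other. From control 2 they differed with SDs of 0.445 and 0.49. In footprints the SD was 0.372 between controls and from 0.422 to 0.521 between a knockdown and a control.

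**Figure D3:**
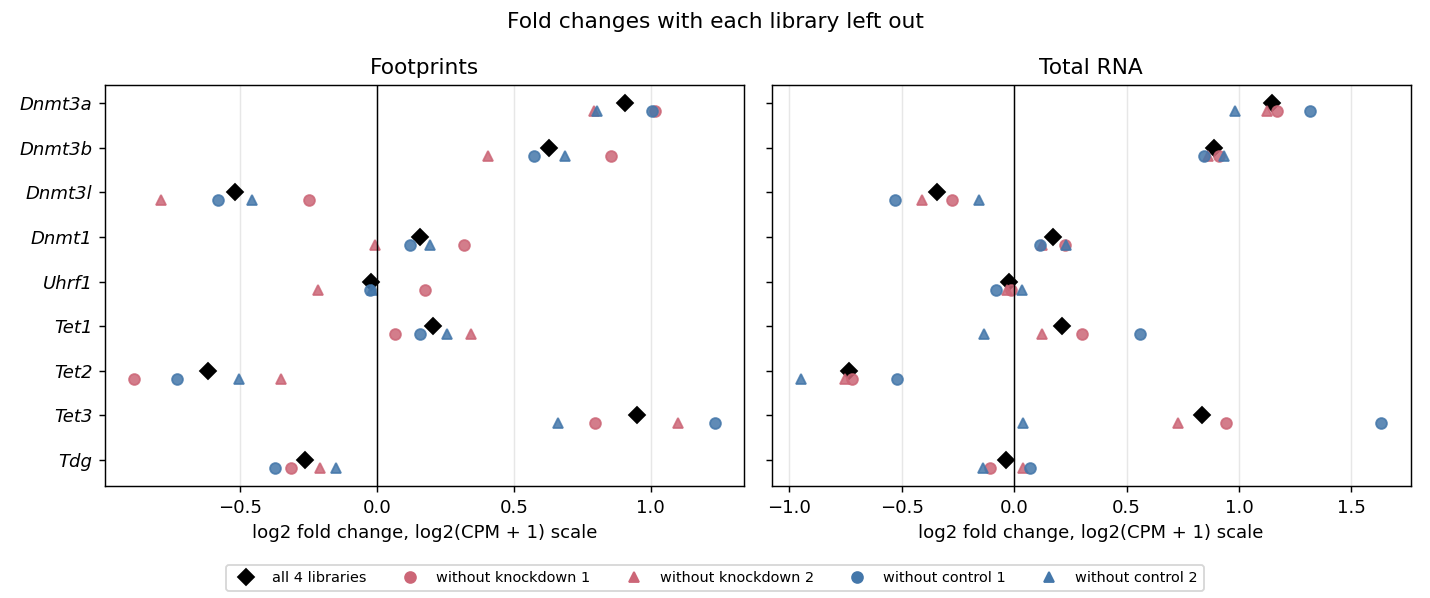
Log2 fold change of each enzyme over all 4 libraries of an assay (black) and with 1 library left out (colours), footprints on the left and total RNA on the right. Dnmt3a and Dnmt3b stay to the right of 0 and Tet2 and Dnmt3l to the left, as groups without overlap must. Tet1 and Tet3 in total RNA move with the controls.

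Footprints relative to total RNA passed the test of a change for 0 of the 9 enzymes. The change in the footprint-to-RNA ratio was tested in limma as an assay-by-knockdown interaction, all 8 libraries fitted together, with an adjusted p of 1 for each gene. At an unadjusted p below 0.05 there were 0 of 9, where 1.55% of all genes had one. Dnmt3a had a log2 ratio change of -0.24 ± 0.24 SE, with a 95% confidence interval of -0.78 to 0.29, and Dnmt3b had -0.26 ± 0.25, with -0.80 to 0.29. Their total RNA was therefore farther above control than their footprints by an amount within its error. The other values ran from -0.23 ± 0.22 for Tdg to 0.12 ± 0.30 for Tet2. The widest interval was that of Tet3, from -1.25 to 1.47.

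The level of this ratio differed among the enzymes in control cells. It describes footprints per total RNA of the same gene on scales normalized separately, so only its order among genes is read. Neither assay was corrected for the length of the coding part or of the whole transcript. The order is therefore not a ranking of translation. Ratios given per library divide footprints by total RNA of the same number. The numbers were not shown to pair the libraries, so the distance between such ratios rests on that choice. Dnmt3l had the highest ratio of the 9, 1.93 from the control means, with 2.12 and 1.78 in control 1 and 2, and stood at percentile 96.3 of all genes in both tables. Dnmt1 (1.22 and 1.18 in control 1 and 2), Uhrf1 (1.07) and Dnmt3b (1.05) followed, Dnmt3a (0.794) was at the median of all genes (0.793), and Tdg had 0.673. The 3 TET genes were the lowest, Tet2 with 0.488, Tet1 with 0.453 and Tet3 with 0.413, at percentiles 19.4, 16.4 and 12.8. Tet1, however, had 0.353 in control 1 and 0.614 in control 2, and Tet2 had 0.392 and 0.618, so the order among the TET genes and Tdg is not fixed beyond the distance between controls. In the knockdown Dnmt3l was again highest (1.49 and 1.97 in knockdown 1 and 2), and the lowest was Tet1 (0.543 and 0.396) in place of Tet3.

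Ratios between members within a library do not depend on how that library was scaled. Total RNA of Dnmt3a relative to Tet2 was 1.76 and 1.77 in knockdown 1 and 2 and 0.462 and 0.493 in control 1 and 2, a 3.70-fold difference of the group values, with almost no distance within a group. In footprints the same ratio was 1.71 and 2.91 against 0.897 and 0.665, a 2.96-fold difference. This pair joins the members with the highest and the lowest log2 fold change in total RNA, so its difference restates those changes. Total RNA of both genes was lower in control 2, at 0.793 (Dnmt3a) and 0.743 (Tet2) of control 1. The balance of the catalytic enzyme Dnmt3a to its cofactor Dnmt3l was 1.85 and 1.73 against 0.812 and 0.497 in total RNA (2.74-fold) and 0.784 and 0.629 against 0.292 and 0.233 in footprints (2.69-fold). Dnmt3b relative to Dnmt3l was 2.34-fold and 2.23-fold higher in total RNA and footprints, and Dnmt3a relative to Dnmt1 was 1.94-fold and 1.68-fold higher.

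Dnmt3a relative to Dnmt3b differed 1.19-fold in total RNA and 1.21-fold in footprints, and Uhrf1 relative to Dnmt1 was at 0.873 and 0.884 of control. Tet1 relative to Tet2 was 1.84 and 2.03 in the knockdown against 1.10 and 0.912 in the control in total RNA, a 1.93-fold difference (1.78-fold in footprints), although Tet1 itself had overlapping groups. The total RNA controls of Tet1 and Tet2 were both lower in control 2, and the distance between controls was smaller in their ratio than in either gene.

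Across the 8 libraries, after centring each assay on its own mean, Dnmt3a and Dnmt3b had a Pearson r of 0.947, the highest of the 36 pairs. Tet1 and Tet3 had 0.874. The lowest values were -0.943 for Dnmt3b with Tet2 and -0.868 for Dnmt3a with Tet2. These describe 8 points that share the knockdown contrast and each library's scaling. By the same measure over 8018 other genes of at least 10 CPM, those most like Dnmt3a were Patj (r = 0.999) and Plekhg5 (0.994), and those most like Dnmt3b were Vwa5a (0.994) and Bbx (0.989). Dnmt3l was most like Idh1 (0.997) and Nusap1 (0.996), and Tet2 most like 5031439G07Rik (0.991) and Pcyt1b (0.982). Dnmt1 went with Sec23ip (0.992) and Trim33 (0.981), Uhrf1 with Ift88 (0.991) and Anln (0.990), and Tet1 with B3gntl1 (0.993) and Kansl1 (0.991). Tet3 went with Cbfa2t2 (0.999) and C2cd3 (0.996), and Tdg with Gm26205 (0.987) and Lrsam1 (0.951). An r above 0.9 was reached by 288 genes with Dnmt3a, 335 with Dnmt3l and 7 with Tdg.

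Among 11 regulators of de novo methylation and of imprints, the median was -0.03 in footprints and 0.08 in total RNA, with 0 called by limma. At an unadjusted p below 0.05 the list had 1 higher and 1 lower in footprints and 2 higher and 1 lower in total RNA. Zfp57, a zinc finger protein that keeps methylation at imprinted loci, had footprints of 311.2 and 331.0 CPM in the knockdown and of 473.1 and 546.7 CPM in the control, and total RNA of 264.2 and 279.2 CPM against 427.8 and 406.2 CPM. Both knockdown libraries were low in each assay, at 63.0% and 65.2% of control (limma, adjusted p = 0.184 and 0.131). Kmt2a, a histone H3 lysine methyltransferase, was at 97.9 and 83.4 CPM against 59.1 and 53.2 CPM in footprints (log2 fold change 0.68 ± 0.17). Dppa3, which keeps Uhrf1 away from chromatin in oocytes, had a total RNA log2 fold change of 0.83 ± 0.29 on between 22 and 108 reads.

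Base excision and active demethylation genes, which act after Tdg, had medians of -0.02 in footprints (14 genes) and -0.03 in total RNA (15 genes). limma called 0. At an unadjusted p below 0.05 there were 3 higher and 1 lower in footprints and 2 higher and 1 lower in total RNA. Gadd45g, a stress-response protein linked to demethylation, had footprints of 14.7 and 16.8 CPM in the knockdown and of 4.14 and 5.25 CPM in the control, and total RNA of 15.2 and 13.7 CPM against 3.20 and 4.55 CPM. Both pairs were far apart, 3.36-fold in footprints and 3.72-fold in total RNA (limma, adjusted p = 0.078 and 0.0819). Its relative Gadd45b had a footprint log2 fold change of 1.13 ± 0.29 and a total RNA change of 0.59 ± 0.18. Neil1, a glycosylase that can follow Tdg, was lower without overlap in both assays (-0.79 ± 0.27 and -0.80 ± 0.18), on between 42 and 97 reads per library.

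Partners of the TET enzymes and enzymes that set their cosubstrate oxoglutarate had medians of -0.05 in footprints and 0.05 in total RNA over 11 genes, with 0 called by limma, 2 lower at an unadjusted p below 0.05 in footprints and 0 in total RNA. Isocitrate dehydrogenases Idh1 and Idh3a had footprint changes (log2) of -0.50 ± 0.20 and -0.51 ± 0.19. Cxxc5, a CXXC protein that binds Tet2, had 0.39 ± 0.19 in total RNA and 0.11 ± 0.21 in footprints. The 16 genes of the S-adenosylmethionine and one-carbon cycle, which supply the methyl group, had medians of -0.16 and 0.02, with 0 called by limma. At an unadjusted p below 0.05, 1 was higher and 1 lower in footprints and 1 higher and 4 lower in total RNA. The glycine decarboxylase Gldc (-0.39 ± 0.16 in footprints) and the serine hydroxymethyltransferase Shmt2 (-0.41 ± 0.13 in total RNA) had negative values.

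Readers of methylated CpG and related proteins had medians of 0.24 in footprints and 0.32 in total RNA over 10 genes. limma called 0, with 0 at an unadjusted p below 0.05 in footprints and 1 higher in total RNA. That gene was Mbd1, a methyl-CpG binding repressor, at 30.5 and 28.7 CPM against 21.0 and 19.8 CPM (limma, adjusted p = 0.21). Zbtb33, which binds methylated DNA through zinc fingers, had 0.45 ± 0.25 in footprints and 0.34 ± 0.15 in total RNA. Mbd6 had 0.46 ± 0.26 in footprints and 0.29 ± 0.50 in total RNA, where the value was -0.54 without control 2.

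Genes whose promoters or control regions are known to carry methylation were examined as lists. Imprinted genes had medians of 0.16 in footprints (16 of 21 positive) and 0.19 in total RNA (15 of 21 positive), with 0 called by limma and 4 higher and 1 lower at an unadjusted p below 0.05 in each assay. Meg3, a maternally expressed noncoding RNA, had total RNA of 398.1 and 382.8 CPM in the knockdown and of 234.4 and 99.7 CPM in the control (limma, adjusted p = 0.201), and the controls lay far apart. The paternally expressed Ndn had footprints of 23.5 and 28.4 CPM against 12.9 and 14.6 CPM. The growth factor adaptor Grb10 was lower without overlap, at 64.0% of control in footprints and 67.5% in total RNA (limma, adjusted p = 0.184 and 0.175).

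Germline genes with promoters methylated in somatic cells had medians of 0.41 in footprints and 0.15 in total RNA over 18 genes, with 11 positive and 7 negative in each. limma called 0, and at an unadjusted p below 0.05 there were 5 higher and 2 lower in footprints and 5 higher and 3 lower in total RNA. Tdrd1, a Tudor protein of the piRNA pathway, had total RNA of 13.9 ± 0.391 CPM against 4.62 ± 0.255 CPM (SD, 2 libraries each), 3.00-fold higher (limma, adjusted p = 0.0819). Taf7l, a germ cell TFIID subunit, had a footprint log2 fold change of 1.26 ± 0.30. Hormad1, of the meiotic chromosome axis, had -1.20 ± 0.31 in footprints and -0.97 ± 0.23 in total RNA. Tuba3a had -0.99 ± 0.21 in total RNA, and its reads may be shared with a near-identical tubulin copy. The class therefore held values of both signs, and methylation itself was not measured.

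Markers of cell state also differed between the groups, without passing the adjusted test. Naive state genes had medians of -0.60 in footprints and -0.56 in total RNA, with 12 of 14 negative in each. limma called 0, and at an unadjusted p below 0.05 there were 0 higher and 8 lower in footprints and 1 higher and 9 lower in total RNA. Their summed level was 2752 and 2503 CPM in the knockdown against 4720 and 4894 CPM in footprints, and 2283 and 2292 CPM against 4077 and 3999 CPM in total RNA. Zfp42, a naive marker, was at 41.1% of control in footprints and 45.8% in total RNA, and Tcl1 at 47.8% and 52.0%. The nuclear receptor Nr0b1 had log2 fold changes of -0.79 ± 0.16 and -1.13 ± 0.20 in the same order.

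Primed or formative genes had medians of 0.26 in footprints (7 genes, 5 positive) and 0.69 in total RNA (8 genes, 7 positive). The lowest values were -0.37 for Zic2 in footprints and -0.0016 for Cdh2 in total RNA. Of the 12 listed genes, Pou3f1, Fgf8, T and Cer1 had no row in either assay. limma called 0, with 3 higher in footprints and 4 higher in total RNA at an unadjusted p below 0.05 and 0 lower in either. The summed level was 119 and 125 CPM against 85.6 and 83.3 CPM in footprints and 152 and 143 CPM against 85.5 and 63.9 CPM in total RNA. Otx2, a transcription factor of the formative state, had total RNA of 58.9 and 55.6 CPM against 27.7 and 21.8 CPM. The Wnt effector Lef1 had a footprint log2 fold change of 1.43 ± 0.24 and a total RNA change of 1.86 ± 0.33, and the zinc finger gene Sall2 had 1.23 ± 0.22 and 1.41 ± 0.25. Fgf5, which marks the formative epiblast, was at 3.79 and 3.68 CPM in the knockdown total RNA and at 0.685 and 0.222 CPM in the control, the lowest value being 2 reads.

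The naive sum lay lower and the primed sum higher in every knockdown library, the libraries in which Dnmt3a and Dnmt3b were high and Tet2 low. Genes of 2-cell-like cells, a rare state of these cultures, were positive for 5 of 5 in both assays, with medians of 1.49 and 1.42. Zscan4c, Zscan4d and Zscan4f among them are close copies that may share reads, so the 5 are not independent. Tcstv1 and Tcstv3, of the 7 listed, had no row in either assay. The sum over the 5 genes was 44.3 and 76.2 CPM against 14.1 and 16.9 CPM in footprints. In total RNA the sum was 55.5 and 95.5 CPM against 26.5 and 26.8 CPM. Sums of primitive endoderm markers ranged from 33.5 to 35.4 CPM in knockdown and from 32.0 to 35.3 CPM in control footprints (6 of 7 with a row). In total RNA they were 31.1 CPM in both knockdowns against 23.6 and 20.5 CPM (5 of 7). Trophoblast markers summed to 125 and 134 CPM against 117 and 96.7 CPM in footprints (5 of 7) and to 88.7 and 96.6 CPM against 83.7 and 81.3 CPM in total RNA (4 of 7). Foxa2, Cdx2 and Elf5, defining markers of endoderm and trophoblast, had no row in either table used here. The part of these cell states in the values of the 9 enzymes was not tested.

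**Figure D4:**
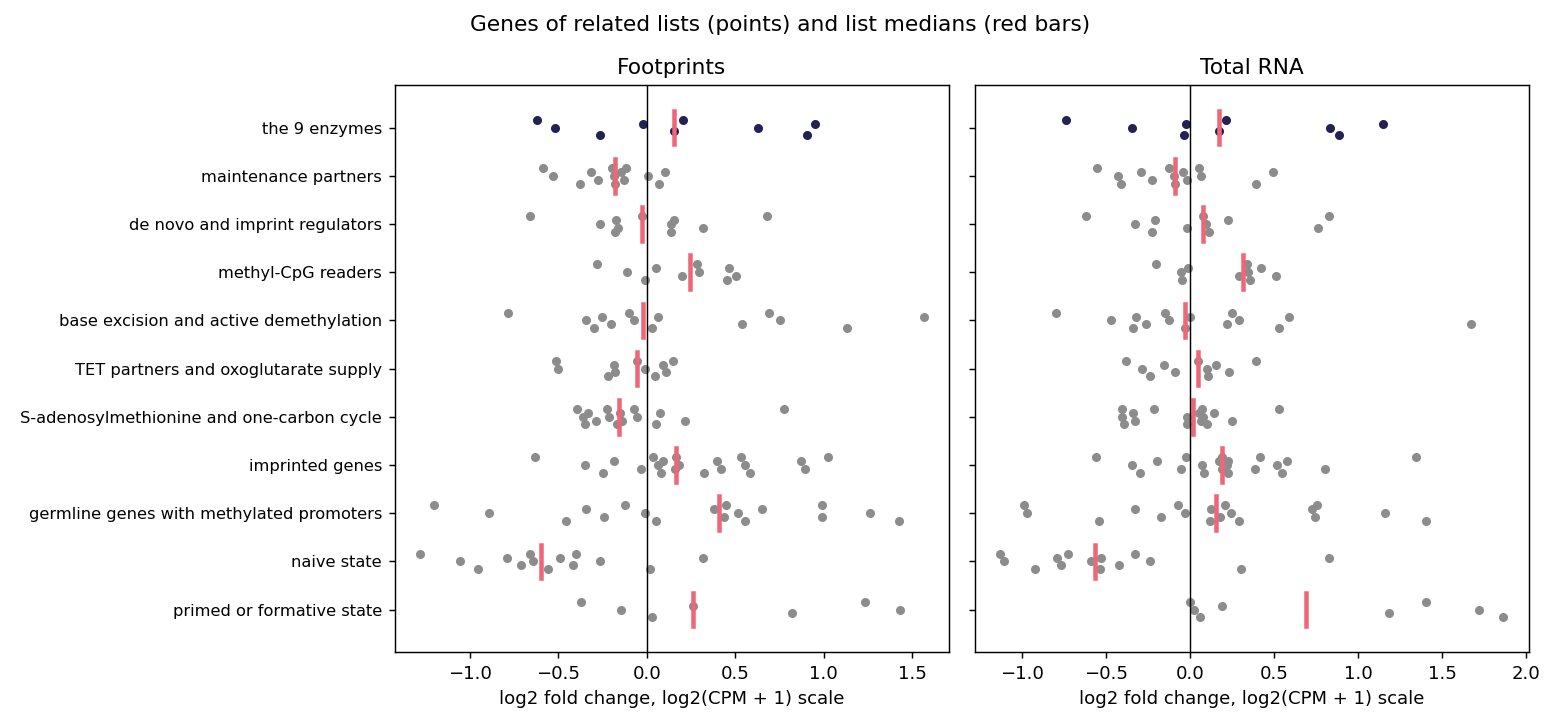
Log2 fold change of every tested gene (points) of the 9 enzymes and of each related list, footprints on the left and total RNA on the right, with red bars at list medians. The naive list has medians of -0.60 and -0.56, and the 9 enzymes are spread on both sides of 0 with medians of 0.16 and 0.17.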

How the data were processed

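The deposited library columns hold signal, reads per gene that the authors divided by an effective library size, per the file headers on a CPM scale. The same deposited tables give the authors' log2 fold changes, a likelihood ratio score and p-values with FDR. Listed in the submitters' processing notes are edgeR 3.26.8, HTSeq 0.11.2, TopHat2 2.1.1, Bowtie 1.2.3 and build mm9, with no role for each. The sources used here do not say how reads on overlapping or antisense genes were counted. The tables had lost genes with few reads before deposit, and footprints and total RNA were normalized separately.

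Every value was a whole multiple of what 1 read is worth in its column (within 0.01 read for 100% of values), so reads per library could be read back, except that the step of the second footprint control could not be told from rounding and no count test uses it. Genes were kept by filterByExpr of edgeR 4.0.16 (minimum count 10, minimum total 15). limma 3.58.1 in R 4.3.3 was fitted to log2(CPM + 1), with eBayes set to trend its variance prior on mean level, and p-values were adjusted by Benjamini-Hochberg over 12723, 13436 and 12358 genes (footprints, total RNA, ratio) at 0.05. Knockdown and control were compared with 2 libraries each, 2 residual degrees of freedom per assay and 4 for the ratio. The code was tested on simulated data.

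The 9 members and all lists were chosen with earlier results of these data known. Genes named from a list are the 2 with the smallest p in each assay, as none passed; likeness names the 2 genes with the highest r. 1 gene that the rule names is not reported here. A few further values of list genes in the other assay are given beside these. The comparison with DESeq2 1.42.0, edgeR on reads, other scalings, pseudocounts and filters, a replicate block and left-out libraries is in the closing section. Promoter windows come from RefSeq (GRCm38.p6), matched by symbol for 9 of 9 genes. No genome of the files' build was used, so no coordinates of the reads are given. Intervals and read numbers cover no error between cultures beyond these libraries.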

Additional observations from a re-analysis of the deposited data

How the results depend on the processing

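With 2 libraries a group, the number of calls depended on the model. In footprints 0 genes were called; 21 were with columns rescaled to equal sums (10 higher, 11 lower), 89 with all 8 libraries in 1 fit, and without the second control 3 by edgeR's quasi-likelihood test, 44 by its likelihood ratio test and 10 by DESeq2. Leaving out 1 library gave 1 to 36 calls (control 2 left out 1, control 1 left out 4, knockdown 1 left out 20, knockdown 2 left out 36). In total RNA 0 were called; 97 were with all 8 libraries, 824 by the likelihood ratio test and 272 by DESeq2. Leaving out 1 library gave 34 to 6191 (knockdown 2 left out 34, knockdown 1 left out 62, control 2 left out 3411, control 1 left out 6191). With 1 control left, that library is assumed to vary like the knockdown pair. The ratio had 0 calls, or 1 without footprint knockdown 2 and 1 without footprint control 1.

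The replicate numbers were not shown to pair the libraries. With a replicate block 21 genes were called in footprints, 636 in total RNA and 0 for the ratio. Same-numbered libraries deviated with r = 0.231 in footprints and -0.275 in total RNA, and a crossed replicate block, chosen after seeing the data, gave 924 in total RNA. With the block in total RNA limma's adjusted p was 0.000244 for Dnmt3a, 0.00989 for Dnmt3b and 0.0327 for Tet3.

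Dnmt3a passed in 2 of 17 alternatives in footprints and 7 of 18 in total RNA. The footprint settings were columns rescaled to equal sums and all 8 libraries in 1 fit (limma, adjusted p = 0.0473 and 0.0492). They called 21 and 89 genes of all tested. Dnmt3b passed in 6 and Tet2 in 5 of 18 in total RNA, and neither passed in footprints. For Dnmt3a the total RNA settings were a replicate block (also crossed), all 8 libraries, the likelihood ratio test, DESeq2 or 1 control left out. Dnmt3b did not pass with all 8 libraries (limma, adjusted p = 0.0528). Tet2 did not pass there or with the replicate block (limma, adjusted p = 0.158 and 0.0541), but did with the crossed block. Those of these settings with every library kept called 97 to 924 genes of all tested, so passing in them was shared with many genes. Directions of Dnmt3a, Dnmt3b, Tet2 and Dnmt3l held in every alternative run in both assays. Their groups did not overlap, so leaving out 1 library could not turn these signs. Filters, variance priors and blocks leave a fold change as it was, so these runs do not test its direction. The count tests on members were added after seeing the data. Values near 0 turned sign. Uhrf1 in footprints was 0.10 rescaled to equal sums, 0.00059 centred on the median and 0.0027 by DESeq2, and in total RNA 0.049 rescaled to equal sums, where Tdg was 0.036. Ehmt1 in footprints was -0.014 and Cxxc5 -0.067 by both edgeR tests, and -0.011 and -0.065 by DESeq2. These count tests leave out footprint control 2, and limma without that library gave -0.025 for Ehmt1 and -0.074 for Cxxc5. The ratio change rescaled to equal sums and centred on the median was 0.034 and 0.00066 for Dnmt1 and 0.045 and 0.011 for Tet1. With 1 library left out, footprint values ran from -0.22 to 0.17 for Uhrf1, -0.0061 to 0.32 for Dnmt1, -0.041 to 0.25 for Ehmt1 and -0.074 to 0.29 for Cxxc5, and total RNA values from -0.14 to 0.069 for Tdg, -0.081 to 0.036 for Uhrf1, -0.14 to 0.56 for Tet1 and -0.54 to 1.1 for Mbd6. Ratio changes ran from -0.18 to 0.14 for Dnmt1, -0.36 to 0.34 for Tet1, -0.45 to 0.092 for Dnmt3l, -0.15 to 0.38 for Tet2, -0.68 to 0.91 for Tet3 and -0.19 to 0.20 for Uhrf1. The cause of these shifts was not tested. Tet3 has no footprint value under a minimum mean of 10 CPM.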
